A study of Homo sapiens with 4 samples.

Results

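The genes described here are 10 tubulin genes: TUBA1A, TUBA1B, TUBA1C and TUBA4A of the alpha class, TUBB, TUBB2A, TUBB2B, TUBB3 and TUBB6 of the beta class, and TUBG1 of the gamma class. They were found among 14267 named genes or loci (14297 gene probes) of the array by the gene name in the files or by the current symbol of the transcript that a probe was made for, and each had 1 probe. Tubulins of the alpha and beta classes form the dimer from which microtubules are built, while gamma-tubulin sits in a ring that starts new microtubules at the centrosome. Tubulin mRNA is known to be autoregulated: when a cell holds more free dimer than it needs, the mRNAs of alpha- and beta-tubulin are degraded on the ribosome as they are translated.

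K562, a human erythroleukemia cell line, was treated for 4 h with AC-1041, a thalidomide analog that binds lipid droplets. Each of 4 two-colour Agilent arrays took RNA of treated and of control cells and gave 1 ratio of treated over control. Treated RNA was labelled with Cy5 on arrays 1 and 2 and with Cy3 on arrays 3 and 4, and control RNA with the other dye. The controls are untreated cells by the sample labels and DMSO-treated cells by the methods of the study, and the methods name 4 samples per treatment and 4 controls without tying them to arrays, so that p-values measure only the spread between these arrays, which may be technical. Of 13 erythroid marker genes on the array, 12 stood well above background on all 4 arrays in control RNA, whereas the hepatocyte genes ALB, APOA1 and TF were above it on none. Among the erythroid markers, GATA1, KLF1, TAL1, LMO2 and NFE2 were lower in treated cells and EPOR was higher, from a log2 ratio of -1.31 for NFE2 to 0.22 for EPOR (limma), and their part in the tubulin ratios was not tested. Of the lymphoid markers, CD79A of B cells was also well above background in all 4 control channels, and of the T cell and monocyte markers none was.

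Because tubulins are close paralogs, the probes decide which transcript a value belongs to, and the probes whose letters bear on this are printed from 5′ to 3′. Positions are on hg18 as the files give them, which do not state the place of a probe within its transcript. The probe of TUBG1 (chr17:38018548-38018607, plus strand) came closest to that of another gene, its paralog TUBG2. Here 36 of 38 overlapping bases were the same, marked in capitals, with a longest shared run of 23 bases.
TUBG1: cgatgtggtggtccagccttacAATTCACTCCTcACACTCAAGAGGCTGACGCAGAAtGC
TUBG2: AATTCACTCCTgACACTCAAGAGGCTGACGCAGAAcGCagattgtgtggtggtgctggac

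No probe for a gene other than its own shared a run of 20 bases with the probes of the other 9 members. The probes of TUBA1A and TUBA4A matched at 32 of 38 overlapping bases, with a longest shared run of 11. Probes were compared only with each other and not with transcripts, so this cannot show which transcripts a probe detects. The transcript accessions given for 2 probes named a second tubulin, namely TUBA1B for the TUBA1C probe (chr12:47952552-47952611, plus strand) and TUBB6 for the TUBB3 probe (chr16:88529436-88529495, plus strand), so that their values may include RNA of the second gene.
TUBA1C: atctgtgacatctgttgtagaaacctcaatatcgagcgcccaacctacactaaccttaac
TUBB3: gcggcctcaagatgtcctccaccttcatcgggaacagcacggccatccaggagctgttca

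After 4 h of AC-1041 most of the tubulin genes did not pass the test. By fitted ratio the neuronal class III gene TUBB3 was lower, the class II genes TUBB2A and TUBB2B were higher, and the other 7 members did not pass. The call of TUBB2B averages opposite directions, with means of -0.36 with treated RNA in Cy5 and 1.20 in Cy3. All fitted ratios lay between a log2 ratio of -0.28 for TUBB3 and 0.42 for TUBB2B, and the median of the 10 members was -0.065, beside 0.017 for all 8852 probes tested. With limma, a dye term and an adjusted p of 0.05 over all probes tested, 2 members were higher (24.3% of all probes were) and 1 was lower (13% of all probes were). Together, 3 of 10 members were called in either direction, beside 37.3% of all probes, so the share was near the background of the array. Without the dye term no member passed the limma threshold or an unadjusted p of 0.05, and 52 probes were higher and 4 lower in all, so that each of the 3 calls rests on the spread between arrays of the same dye orientation.

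**Figure D1:**
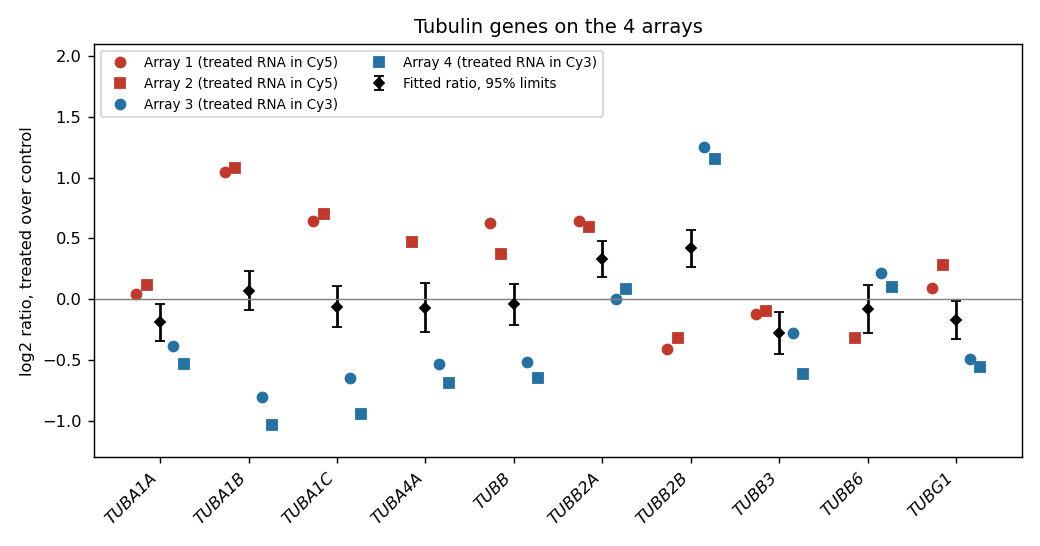
Log2 ratio of treated over control for each tubulin gene on arrays 1 and 2 (red, treated RNA in Cy5) and 3 and 4 (blue, treated RNA in Cy3). Black diamonds are ratios fitted with limma and a dye term, and bars their 95% limits. Red and blue points are apart for most genes, TUBB2B stands opposite to the alpha-tubulins, and TUBB3 lies below 0 on all 4 arrays.

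TUBA1B, an alpha-tubulin that most dividing cells express, gave the brightest spots of the members, at percentile 99.9 of mean log intensity over all probes tested. Before any correction, its treated channel read 305626, 291103, 77183 and 51599 on arrays 1 to 4, and its control channel 86855, 67952, 285044 and 248664. The brighter channel was thus the Cy5 channel on all 4 arrays, whichever RNA it held. After normalization its log2 ratios were 1.05, 1.08, -0.81 and -1.03. The first pair of arrays put TUBA1B higher in treated cells and the second pair put it lower by nearly as much. The fitted log2 ratio was 0.07, with 95% limits of -0.09 and 0.23 (limma, adjusted p = 0.45), and its direction turned under 3 alternatives, with values of -0.04 for the processed signals of the scanner software and for the authors' table and -0.14 for median centring.

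TUBA1C, a second widely expressed alpha-tubulin, had log2 ratios of 0.65, 0.70, -0.65 and -0.94 on arrays 1 to 4, and a fitted value of -0.06 (95% limits -0.23 and 0.11, limma, adjusted p = 0.54). Its order of arrays was that of TUBA1B, which its probe may also detect. TUBA4A, the alpha-tubulin whose gene lies apart from the chromosome 12 cluster, had 0.47 on array 2, -0.53 on array 3 and -0.69 on array 4. Its spot on array 1 was marked as an outlier by the scanner software and dropped from the fit, which gave -0.07 (95% limits -0.27 and 0.13, limma, adjusted p = 0.57).

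TUBA1A, the alpha-tubulin best known from developing neurons, had log2 ratios of 0.04, 0.12, -0.38 and -0.54 on arrays 1 to 4. Its values near 0 on the first pair of arrays and below 0 on the second gave a fitted log2 ratio of -0.19 ± 0.32 (SD, n = 4 arrays; 95% limits -0.34 and -0.04). It missed the threshold (limma, adjusted p = 0.0544), and passed it under median centring with -0.30 (adjusted p = 0.0165), among probes well above background in both channels of all arrays (adjusted p = 0.0349), and without array 2 (adjusted p = 0.0437). None of the 4 alpha-tubulins passed the adjusted threshold with limma (37.3% of all probes did), 1 had an unadjusted p under 0.05 (46.9% of all probes did), and the median of their fitted log2 ratios was -0.065.

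Among the beta-tubulins, TUBB2A had log2 ratios of 0.64, 0.59, 0.00063 and 0.08 on arrays 1 to 4. It was clearly higher in treated cells on arrays 1 and 2 and close to 0 on arrays 3 and 4, without crossing 0 on any. The fitted log2 ratio was 0.33 ± 0.33 (SD, n = 4 arrays; 95% limits 0.18 and 0.48), a 1.26-fold higher level (limma, adjusted p = 0.00481). It kept this direction under all 16 alternatives but not its call, since the adjusted p was 0.0841 with the processed signals, 0.0850 with the authors' table, 0.441 without a dye term and 0.0748 without array 4.

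TUBB2B, which lies near TUBB2A on chromosome 6 and encodes a nearly identical protein, had log2 ratios of -0.41, -0.32, 1.25 and 1.15 on arrays 1 to 4. It was therefore lower in treated cells in one dye orientation, with a mean of -0.36, and higher in the other, with a mean of 1.20. The fitted log2 ratio of 0.42 ± 0.90 (SD, n = 4 arrays; 95% limits 0.27 and 0.57) passed the threshold (limma, adjusted p = 0.00160), but it averages opposite directions, as did the calls of 12.8% of all probes tested. TUBB2B was the dimmest member, at percentile 31.45 of intensity, and its raw readings on arrays 1 to 4 were 793, 1642, 1843 and 1671 for treated RNA and 1070, 1474, 712 and 753 for control RNA. Before correction, treated RNA thus read lower on array 1 and higher on the other arrays. The 2 neighbouring genes thus moved opposite ways between the dye orientations, TUBB2A with higher ratios when treated RNA was in Cy5 and TUBB2B when it was in Cy3.

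TUBB3, the beta-tubulin used as a marker of neurons, was the only member lower on all 4 arrays, with log2 ratios of -0.12, -0.10, -0.28 and -0.62. Its fitted log2 ratio was -0.28 ± 0.24 (SD, n = 4 arrays; 95% limits -0.45 and -0.11), so that its probe read 1.21-fold lower in treated cells (limma, adjusted p = 0.0202). This probe may also detect RNA of TUBB6, whose own probe did not pass the test, so the lower value may not be of TUBB3 alone. TUBB3 was also the only member whose dye term did not pass the threshold (limma, adjusted p = 0.0843). Array 4 held the lowest value, and without it the log2 ratio was -0.20 (limma, adjusted p = 0.220).

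TUBB, the main beta-tubulin of many dividing cells, had log2 ratios of 0.62, 0.37, -0.52 and -0.65 on arrays 1 to 4. Its pattern was that of the alpha-tubulins, and the fitted value was -0.04 (95% limits -0.21 and 0.12, limma, adjusted p = 0.676). TUBB6, the class V beta-tubulin, had -0.32 on array 2, 0.22 on array 3 and 0.10 on array 4, with its array 1 spot marked and dropped, and a fitted value of -0.08 (95% limits -0.28 and 0.12, limma, adjusted p = 0.51). Its ratios ran opposite to those of TUBB, and neither gene passed the test.

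TUBG1, the gamma-tubulin of the ring complex, had log2 ratios of 0.09, 0.28, -0.50 and -0.55 on arrays 1 to 4. The fitted log2 ratio was -0.17 ± 0.42 (SD, n = 4 arrays; 95% limits -0.32 and -0.01) and missed the threshold (limma, adjusted p = 0.0837). Without array 2 it was -0.22 and passed (limma, adjusted p = 0.0338). TUBG2, whose probe shares most of its overlapping bases, had 0.09, 0.05, -0.45 and -0.42 and a fitted -0.19, just outside the threshold (limma, adjusted p = 0.05004).

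The exact sign-flip permutation test over 4 arrays (two-sided), which uses no dye term, cannot give a p under 0.125. TUBB2A and TUBB3 both had that value, since each had 1 direction on all 4 arrays. These 2 of 10 members stand beside 25.2% of all probes tested with 1 direction on every array measured. Higher on every array were 1 member and 15.7% of probes, and lower on every array 1 member and 9.49% of probes. The 95% limits rest on the spread within each orientation and do not include an error shared by its arrays.

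For every member the means of the 2 dye orientations lay farther apart than the fitted value lay from 0. The dye term passed the threshold for 9 of 10 members, and for 58.2% of all probes tested. The median log2 ratio of the members was 0.36 and 0.33 on the first pair of arrays and -0.44 and -0.59 on the second, while the median of all probes tested was -0.00093, 0.05, 0.03 and 0.05. Opposite directions in the 2 orientations were found for 8 of 10 members and for 61.7% of all probes. Across members, the correlation of the log2 ratios was 0.965 between arrays 1 and 2 (8 members) and 0.985 between arrays 3 and 4 (10 members), and from -0.724 to -0.625 between arrays of different orientation, points that share RNA, slide and normalization. Arrays 1 and 2 also had the wider background, with an SD of the negative control spots of 226 to 308 against 27.8 to 40.5 on arrays 3 and 4, so that the 2 cannot be told apart.

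**Figure D2:**
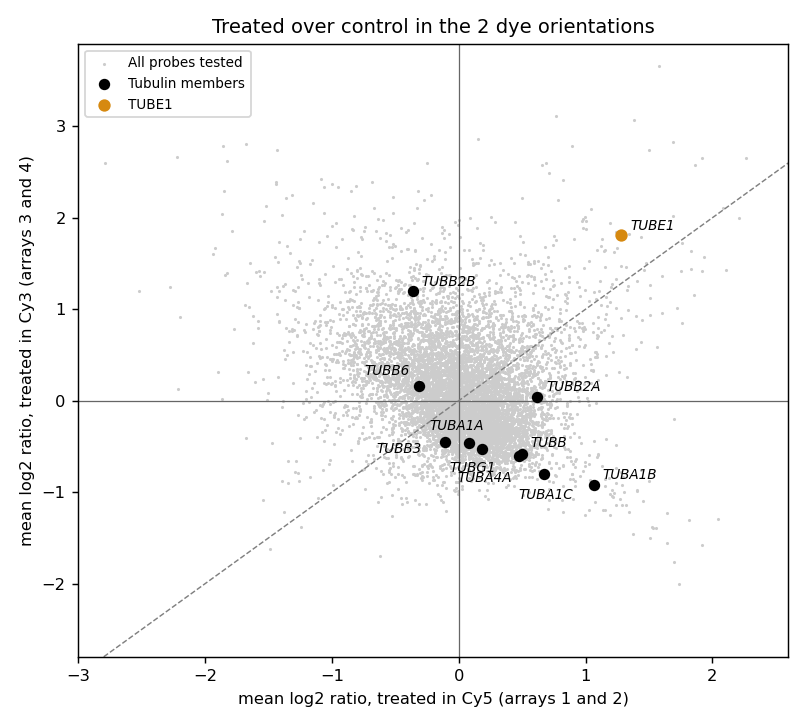
Mean log2 ratio of treated over control on the arrays with treated RNA in Cy5 (x axis) and in Cy3 (y axis), for all 8852 probes tested (grey), the 10 tubulin members (black) and TUBE1 (orange). A gene with the same ratio in both orientations lies on the dashed line. TUBE1 lies near it at 1.28 and 1.81, TUBB3 is the only member below 0 on both axes, and TUBA1B is far from the line at 1.06 and -0.92.

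Differences between members within an array were also compared. Of the 45 pairs, 5 kept their order on every array measured, and all 5 had TUBB2A as the higher gene. TUBB2A exceeded TUBB3 by a log2 ratio of 0.61 ± 0.22 (SD, n = 4 arrays), TUBA1A by 0.52 ± 0.11, TUBG1 by 0.50 ± 0.14 and TUBB by 0.37 ± 0.32. Its excess over TUBA4A was 0.47 ± 0.33 (SD, n = 3 arrays). Of the 28 pairs measured on all 4 arrays, 4 kept their order. The 5 pairs share TUBB2A and so are not independent, and the TUBB value lay only 0.016 below that of TUBB2A on array 1. These pairs are a description with no test. The share among pairs of all probes was not computed, so the count is not read as a result about the members.

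The 5 genes outside the family whose ratios lay nearest to the median of the members, by Euclidean distance over the 4 arrays among 4810 genes well above background in every channel, were SMYD5, CHMP4A, ZNF444, PLTP and GTF3C5. Their distances were between 0.076 and 0.091. SMYD5, a protein methyltransferase, had log2 ratios of 0.32, 0.32, -0.49 and -0.55 on arrays 1 to 4, the 2-step shape of the alpha-tubulins. None of the 5 was called, and each had a dye term past the threshold. As the 5 were picked for lying near the median profile, these traits and their shape follow from the choice.

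One more distant relative behaved otherwise. TUBE1, the gene of epsilon-tubulin, which acts in the centriole rather than in the microtubule wall, had log2 ratios of 1.21, 1.36, 1.71 and 1.91 on arrays 1 to 4. All 4 values were above the highest fitted value of any member, and both dye orientations gave the same direction. The fitted log2 ratio was 1.54 ± 0.32 (SD, n = 4 arrays), a 2.92-fold higher level (limma, adjusted p = 6.55e-06), and it passed the threshold in 16 of 16 alternatives with log2 ratios of 1.5 to 1.75, also without a dye term (adjusted p = 0.0319).

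Of 12 other genes of the family that were listed, 11 were on the array and tested, with 1 higher (24.3% of all probes were), 4 lower (13% of all probes were) and a median log2 ratio of -0.11. TUBAL3, an alpha-tubulin-like gene, fell by 0.67 on the log2 scale (limma, adjusted p = 0.000175), with values of -0.47, -0.60, -0.76 and -0.83 on arrays 1 to 4. The beta-tubulin TUBB4A had -0.51, -0.32, -0.13 and -0.34 and a fitted -0.33 (limma, adjusted p = 0.00902). Both were lower in treated cells on all 4 arrays, as TUBB3 was. TUBB8 had a fitted -0.29 (limma, adjusted p = 0.0145) and TUBB4B, measured on 3 arrays, -0.37 (limma, adjusted p = 0.0257), but each had a value above 0 on 1 array. The call was kept by TUBAL3 in 15 of 16 alternatives, by TUBB4A in 13, by TUBB8 in 12 and by TUBB4B in 7 of 11, and without a dye term the adjusted p of these 4 genes was from 0.0747 to 0.6 (limma). Of 4 further probes that the files name as tubulin-like loci, LOC442210 with a log2 ratio of -0.42 and LOC647690 with -0.25 were also lower on all 4 arrays. So were 9.49% of all probes tested. MGC16703 had 0.03 (limma, adjusted p = 0.747), and LOC391171 was too dim to be tested.

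**Figure D3:**
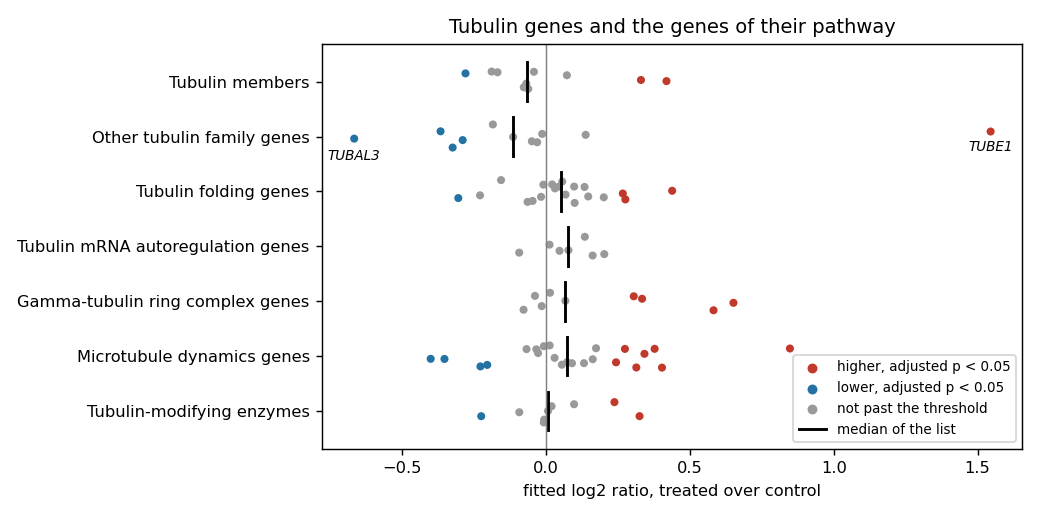
Fitted log2 ratio of treated over control for every tested gene of the 10 tubulin members and of 6 lists of the pathway (points, spread vertically for visibility), with the median of each list as a black bar. Red and blue points passed an adjusted p of 0.05 (limma). The medians lie between -0.11 and 0.08, and TUBE1 stands alone at 1.54.

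The genes that fold tubulin were next. Of 20 tested, 3 were higher and 1 lower, beside 24.3% and 13% of all probes, with a median log2 ratio of 0.05. TBCEL, a relative of cofactor E that destabilises tubulin, had 0.38, 0.40, 0.36 and 0.60 on arrays 1 to 4 and a fitted 0.44 (limma, adjusted p = 0.00172). Its signs did not differ between arrays, but its spots were well above background on only 2 arrays in each channel. Cofactor TBCE itself had a fitted 0.27 (limma, adjusted p = 0.0224) but means of -0.25 and 0.78 in the 2 orientations. ARL2, a small GTPase that acts with the cofactors, had -0.31 (limma, adjusted p = 0.0300). CCT7 was the only one called of 7 tested subunits of the CCT chaperonin, with 0.28 on 3 arrays (limma, adjusted p = 0.0378), from 0.91 on the 1 array with treated RNA in Cy5 and a mean of -0.36 in Cy3, and the prefoldin gene PFDN6 had -0.23 (limma, adjusted p = 0.0655).

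Of the genes that act in the decay of tubulin mRNA, 7 were tested and none passed in either direction with limma, with a median log2 ratio of 0.08, while 2 had an unadjusted p under 0.05. Of all probes tested, 37.3% passed and 46.9% had such an unadjusted p. TTC5, which recognises the nascent tubulin chain, was not among the genes found on the array, and SCAPER, its partner, had a log2 ratio of 0.08 (limma, adjusted p = 0.632). The other 6 were subunits of the CCR4-NOT deadenylase, of which CNOT3 had the lowest p, with a log2 ratio of 0.20 (limma, adjusted p = 0.0549). CNOT8, CNOT10 and CNOT1 had 0.16, 0.13 and 0.05. CNOT7 showed the dye orientation most plainly, with -1.01, -1.08, 0.97 and 0.74 on arrays 1 to 4 and a fitted -0.09.

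Of 9 tested genes of the gamma-tubulin ring and the proteins that anchor it, 4 were higher and none lower, beside 24.3% and 13% of all probes, with a median log2 ratio of 0.07. CDK5RAP2, which binds and activates the ring, had 0.72, 0.68, 0.43 and 0.50 on arrays 1 to 4 and a fitted 0.58 ± 0.14 (SD, n = 4 arrays; limma, adjusted p = 0.000291). TUBGCP3, a core subunit, had 0.02, 0.46, 0.42 and 0.44 and a fitted 0.33 (limma, adjusted p = 0.0146). TUBGCP3 was well above background on only 2 arrays in each channel, and CDK5RAP2 in both channels on all 4. The targeting subunit NEDD1, with a fitted 0.30, was called from orientation means of opposite sign. So was the anchoring protein AKAP9, which was well above background in treated RNA on 2 arrays and in control RNA on 1, so that its ratio is not given. TUBGCP2, a further core subunit, had a log2 ratio of -0.08 (limma, adjusted p = 0.455).

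Among 23 tested genes of microtubule dynamics, 7 were higher and 4 lower, close to the 24.3% and 13% of all probes, with a median log2 ratio of 0.07. CAMSAP1, which binds microtubule minus ends, had -0.40, -0.33, -0.46 and -0.42 on arrays 1 to 4 and a fitted -0.40 ± 0.05 (SD, n = 4 arrays; limma, adjusted p = 0.00177), with a narrow spread over both orientations, and was well above background on 3 arrays in each channel. Its paralog CAMSAP2 had -0.12, -0.19, 0.95 and 0.97 and a fitted 0.40 (limma, adjusted p = 0.00174). MAP1B, KIF18A and CLASP2 had fitted values of 0.85, 0.38 and 0.31, each with a mean below 0 when treated RNA was in Cy5, and MAP1B was well above background on 2 arrays in treated and 3 in control RNA. Of 9 tested enzymes that modify tubulin, 2 were higher and 1 lower, beside 24.3% and 13% of all probes. TTL, the tyrosine ligase, had a log2 ratio of 0.24, from orientation means of 0.01 and 0.46 and well above background on 2 arrays in each channel, and HDAC6, the tubulin deacetylase, had -0.23, with values below 0 on all 4 arrays. The carboxypeptidase gene AGBL2 was also called higher, but it was not well above background in control RNA on any array and was so in treated RNA on 2, so that no fold is given. VASH1 with -0.09 and SIRT2 with 0.10 did not pass.

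**Figure D4:**
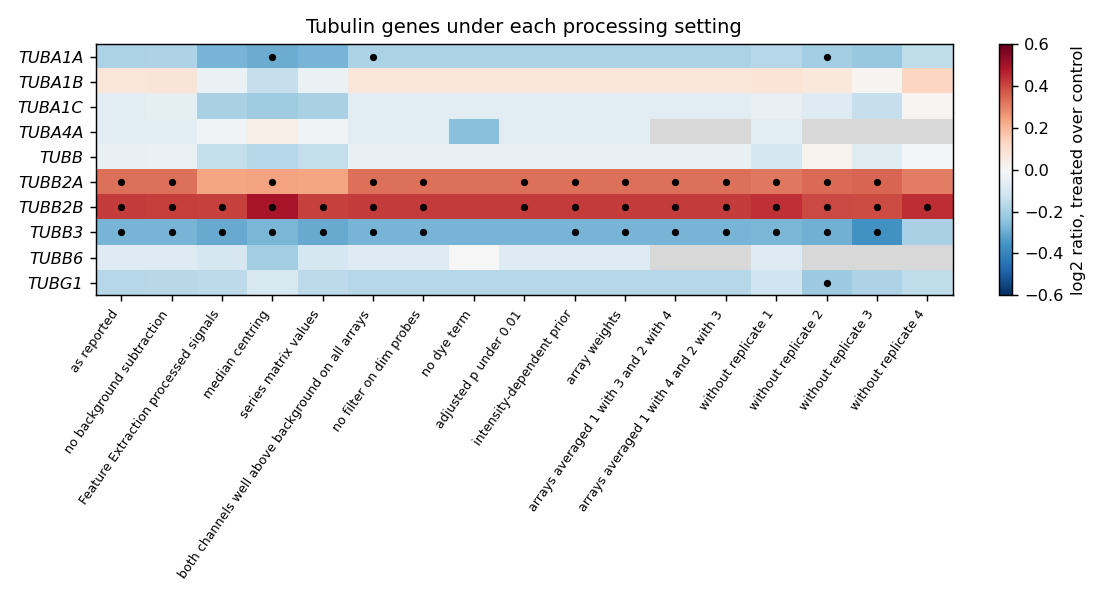
Log2 ratio of treated over control of each member (rows) as reported and under 16 alternatives (columns), in colour from blue (lower in treated cells) to red (higher). A black dot marks an adjusted p past the threshold, and grey marks a member without enough unmarked spots. TUBB2B passed in 15 alternatives, TUBB3 in 13 and TUBB2A in 12, and the column named no dye term has no dot.

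TUBB2B passed the threshold in 15 of 16 alternatives, TUBB3 in 13 and TUBB2A in 12, each with the direction of its fitted ratio kept. TUBA1A passed in 3 and TUBG1 in 1. TUBA1B, TUBA1C, TUBB, TUBA4A and TUBB6 passed in none, and each of these 5 changed direction at least once.

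The members were also compared for sequence features. The GC content of the 60-base probes ran from 28.3% for TUBB2B to 60.0% for TUBB3, which are the members with the highest and the lowest fitted ratio. In RefSeq promoters of GRCh38.p14, which reach from 250 bases before to 50 after a start site, all 10 members had at least 1 entry. The letters of 4 motifs were searched on both strands, and the motifs were chosen after the values were seen. A gene was counted when any of its promoters held the letters, and shares are of 27305 genes with a promoter. The cAMP response element TGACGTCA was in the promoter of 1 member, TUBB2A, and of 2.25% of genes. CCAAT was in those of 7 of 10 members and 39.7% of genes. The letters TGATGCAA (1.08% of genes) and a heat shock element, GAA, TTC and GAA each set 2 bases apart (0.608% of genes), were in those of none. The 250 bases before the start of TUBB2A (GRCh38.p14, chr6:3157545-3157794, minus strand) are shown since it was the one member with this match, with TGACGTCA in capitals, beginning 60 bases before the start.
TUBB2A: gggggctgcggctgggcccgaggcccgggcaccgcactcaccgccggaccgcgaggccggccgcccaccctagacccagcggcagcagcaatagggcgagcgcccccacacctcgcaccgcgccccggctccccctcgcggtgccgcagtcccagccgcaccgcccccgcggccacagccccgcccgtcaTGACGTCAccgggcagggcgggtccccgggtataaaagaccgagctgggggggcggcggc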

How the data were processed

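After scanning, the authors deposited spot intensity and local background intensity of both channels of 4 two-colour arrays, written by Agilent Feature Extraction 9.5.1.1 with no normalization, beside its processed intensity and its log10 ratio. The authors' series table holds a log10 ratio that reads treated over control. From the deposited intensities, log2 ratios were made with normexp (offset 50) over all spots, removal of control spots and loess (span 0.3). Spots marked as non-uniform or population outliers were left out, from 1.57% to 8.08% of probes an array. Probes were kept for the test if they stood well above background on at least 2 arrays, in either channel. Those with unmarked spots on too few arrays for the fit were not tested. The remaining 8852 probes entered limma 3.58.1 (R 4.3.3), with p-values adjusted by Benjamini-Hochberg. Its model held treatment and dye orientation. Current symbols came from a RefSeq table (GRCh38.p14), which named 12002 of 14297 probes. The brightest probe stood for a gene that had several.

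In simulated data for treated over control on 8852 probes, 200 probes were given a log2 ratio of 1, of which 88.5% were recovered, with 1.12% false calls. The members and gene lists were chosen with earlier results of these data known. Genes named are all members, up to 5 genes of lowest adjusted p in each other list, and the 5 genes nearest to the median profile of the members. Cell type markers, further tubulin-like loci, SCAPER, TUBG2 and TTC5 were named beside them, the last 3 after their values were seen. Alternatives were no background subtraction, processed signals, median centring, the authors' table, 2 other filters on dim probes, no dye term, an adjusted p of 0.01, an intensity-dependent prior, array weights, 2 ways of averaging dye-swap pairs, and each array left out. Some probe sequences and marker results are not reported here. The labels give no dose. No spot was saturated, and the number of arrays limits the precision.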

Additional observations from a re-analysis of the deposited data

How the results depend on the processing

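Over all probes, 2155 were higher and 1151 lower; 1342 were higher with both channels above background on all arrays, 596 lower with median centring, 1354 higher and 468 lower at an adjusted p of 0.01, and 52 higher and 4 lower without a dye term. Median centring put 79.9% of calls higher against 65.2%. Leaving out 1 array gave 1010 to 2590 higher and 283 to 1469 lower, the fewest without array 4. Members called higher numbered 1 with processed signals or the authors' table and 0 without a dye term. Members called lower numbered 2 with median centring or the stricter filter, and 0 without a dye term or at an adjusted p of 0.01. Leaving out 1 array gave 1 to 2 higher and 0 to 3 lower. Directions turned for TUBA1B (-0.0409 with processed signals and with the authors' table, -0.139 with median centring), TUBA4A (0.0338, median centring), TUBB6 (0.00145, no dye term), TUBB (from -0.106 to 0.021 with 1 array left out) and TUBA1C (from -0.136 to 0.0115). The causes were not tested. No mean over several probes was run because each member had 1. Each ratio already pairs treated with control RNA on 1 array, and averaging the arrays as dye-swap pairs, in either pairing, left 2 members higher and 1 lower.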
